A study of Homo sapiens with 2 samples.

Results

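The SOX transcription factors were examined in A549 cells, a human lung adenocarcinoma cell line, by digital gene expression, in which short sequence tags are counted gene by gene. The members were 8 genes named by symbol, SOX2, SOX4, SOX7, SOX9, SOX12, SOX13, SOX15 and SOX18. They were chosen with earlier results of these data known. Among the 13137 genes of the deposited table, 6 of them had a row. SOX7 and SOX15 had no row and were not analysed here. Of the 20 human genes of the family, SRY included, 10 had a row, and SOX8, SOX17, SOX21 and SOX30 were read beside the members. The comparison asked which SOX factors dominated in these cells beside SOX2, the gene aimed at by the hairpin, and whether their tags differed between the libraries.

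There were 2 libraries, 1 per condition. In the shRNA-SOX2 condition the A549 cells carried a lentiviral hairpin against SOX2 under the doxycycline-inducible H1TetO promoter, and in the shRNA-Con condition they carried a scrambled hairpin under the same promoter. Both lines were puromycin-selected polyclones, both were kept with doxycycline for 4 days, and 4 µg of total RNA was taken from each. Both conditions therefore shared the virus, the selection and the drug, and no untreated or uninfected A549 library was part of the comparison.

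SOX proteins bind the minor groove of DNA through a high-mobility-group (HMG) box and bend it, and they usually regulate their targets together with a partner factor bound beside them. The family is sorted by HMG-box sequence into groups. SOX2 belongs to group B1, SOX4 and SOX12 to group C, SOX13 to group D, SOX8 and SOX9 to group E, and SOX17 and SOX18 to group F. In the developing lung SOX2 marks the proximal airway epithelium and SOX9 the distal tips of the branching buds. SOX4 is widely made in epithelia and often raised in carcinomas.

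The stretches shown here, from the start of the HMG box of the SOX2 target and of the 3 SOX genes with the most tags, let the reader see how alike these genes are at the sequence by which the family is defined. Each is 90 bases of coding sequence, read 5′ to 3′ from the transcripts of GENCODE release 29 (GRCh38), and the capitals mark the codons of the family signature, 9 residues from an arginine to a tryptophan that all 4 share.
SOX2: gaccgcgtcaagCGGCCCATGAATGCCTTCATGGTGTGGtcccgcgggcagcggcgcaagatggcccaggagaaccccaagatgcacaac
SOX4: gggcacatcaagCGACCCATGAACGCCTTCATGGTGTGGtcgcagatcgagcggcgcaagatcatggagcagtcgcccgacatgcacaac
SOX9: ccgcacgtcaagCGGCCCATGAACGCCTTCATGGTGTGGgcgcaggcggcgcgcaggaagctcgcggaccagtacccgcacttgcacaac
SOX12: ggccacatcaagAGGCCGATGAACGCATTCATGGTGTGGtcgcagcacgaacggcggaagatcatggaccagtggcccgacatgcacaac

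Over 79 codons of the box, SOX4 and SOX12 had 88.6% identical residues, the highest value among the 6 members with a row. SOX2 had 63.3% identity with SOX4, 62.0% with SOX12 and 60.8% with SOX9. The lowest value was 49.4%, between SOX9 and SOX13. Over the whole coding sequences, not aligned and not limited to the box, the longest shared run of bases was 33 between SOX4 and SOX12. It was 30 between SOX9 and SOX18. The tag length and the cutting enzyme were not given in the sources used here, so it was not tested whether a tag could be shared between these genes.

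In the same annotation SOX2 (gene ID 6657) lies on the plus strand at chr3:181711924-181714436 and has 1 exon. It overlaps SOX2-OT on the same strand, and SOX2-OT was not analysed here. SOX4 (6659) has 1 exon at chr6:21592768-21598619, SOX12 (6666) has 1 exon at chr20:325595-330224, and SOX9 (6662) has 3 exons at chr17:72121020-72126420. SOX13 (9580) has 14 exons at chr1:204073115-204127743 and SOX18 (54345) has 2 exons on the minus strand at chr20:64047582-64049641. SOX4, SOX9 and SOX12 overlap the antisense genes AL512380.2, SOX9-AS1 and NRSN2-AS1. Whether the strand was used in counting is not given in the sources used here, and without it reads of a gene and of its antisense partner cannot be told apart.

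The gene tags summed to 2304184 in the shRNA-Con library and 2093816 in the library labelled shRNA-SOX2, so that 1 tag stood for 0.434 and 0.478 gene TPM, the unit used here for tags per 1000000 gene tags. With 1 library per condition there was no replicate check. Fisher's exact test, two-sided, set the tags of each gene against the other gene tags, with Benjamini-Hochberg adjustment over all 13137 genes. This test sets the libraries, not the conditions, against each other, and every interval below is a 95% exact interval that covers counting error only. Of 10 markers of the A549 epithelium, 9 had tags in both libraries and AKR1C1 was not analysed here, with 7702 and 12729 tags for keratin gene KRT8 and 10318 and 7887 for KRT18 in shRNA-Con and the library labelled shRNA-SOX2 respectively. KRT7 had 3899 and 1606 tags and KRT19 35 and 127, while EPCAM was low, with 8 and 4. At an FDR of 0.001 by Fisher's exact test, 4 of the 9 were higher and 3 lower in the library labelled shRNA-SOX2. That is 7 of 9, beside 21.7% of all genes, a share not matched for tag depth. At high counts small differences pass this test, and KRT18 was called at a log2 fold change of -0.25, with shRNA-Con as the denominator.

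SOX2, a pluripotency factor that also maintains airway progenitors, did not have a lower count in the cells labelled as carrying its hairpin. It had 16 tags in shRNA-Con against 23 in the library labelled shRNA-SOX2, or 6.94 gene TPM (interval 3.97 to 11.3) and 11.0 (6.96 to 16.5). The ratio, given throughout with shRNA-Con as the denominator, was 1.58 (0.80 to 3.20), with an adjusted p of 0.333 by Fisher's exact test. The tag counts of SOX2 thus did not follow the label, and every direction given here is tied to the label and not to a measured loss of SOX2 tags. SOX2 protein was not measured in these files. A ratio below 0.80 lay outside the counting error, or below 0.74 when the libraries were scaled by clean tags. At the shRNA-Con count of 16, a lower level would have been called at an FDR of 0.001 only at 0 tags, and a higher one from 42 tags upwards.

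SOX4 and SOX12 had the most tags of the members, and neither differed between the libraries beyond counting error. SOX12, a group C factor made in many tissues, had 387 tags in shRNA-Con against 375 in the library labelled shRNA-SOX2, which is 168 (152 to 186) and 179 (161 to 198) gene TPM. Its ratio was 1.07 (0.92 to 1.23), a log2 fold change of 0.09 that turned to -0.021 with clean tags, with an adjusted p of 0.530 by Fisher's exact test. SOX4, its close relative, had 339 and 335 tags, which is 147 (132 to 164) and 160 (143 to 178) gene TPM. The SOX4 ratio was 1.09 (0.93 to 1.27), with an adjusted p of 0.414 by Fisher's exact test. These were also the members in which the smallest changes could be seen. A fall of 27.3% or a rise to 1.31-fold of the equal-share count would have been called for SOX4, and a fall of 25.8% or a rise to 1.29-fold for SOX12.

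SOX9, the distal-tip factor of the lung bud and a regulator of cartilage, was the member with the smallest p. It had 117 tags in shRNA-Con against 163 in the library labelled shRNA-SOX2, or 50.8 (42.0 to 60.9) and 77.8 (66.4 to 90.8) gene TPM. The intervals of the levels did not overlap, and the ratio was 1.53 (1.20 to 1.96), a log2 fold change of 0.62. The adjusted p was 0.00174 by Fisher's exact test with gene tags, 0.000379 with factors from the trimmed mean of M-values (TMM) and 0.0129 with clean tags, so the call at 0.001 depended on the scaling. At least 166 tags were needed for a call and 163 were seen. When a biological coefficient of variation of 0.1 between cultures was assumed, edgeR's exact test gave an adjusted p of 0.0843, and with 0.2 it gave 0.493.

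SOX13, a group D factor with a coiled coil in place of a transactivation domain, had a ratio below 1. There were 18 tags in shRNA-Con against 5 in the library labelled shRNA-SOX2, or 7.81 (4.63 to 12.3) and 2.39 (0.775 to 5.57) gene TPM. The ratio was 0.306 (0.0887 to 0.854), a log2 fold change of -1.71, with an adjusted p of 0.0520 by Fisher's exact test and 0.0300 with clean tags. A call at 0.001 would have needed 1 tag or fewer. SOX18, an endothelial factor of group F, had 0 tags in shRNA-Con, where the interval reached up to 1.60 gene TPM, and 2 in the library labelled shRNA-SOX2. Both counts are at or under 3 tags, so no fold is given. No gene was listed with exactly 1 tag, so a count of 0 may stand for 1 and the interval at 0 may be too narrow.

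**Figure D1:**
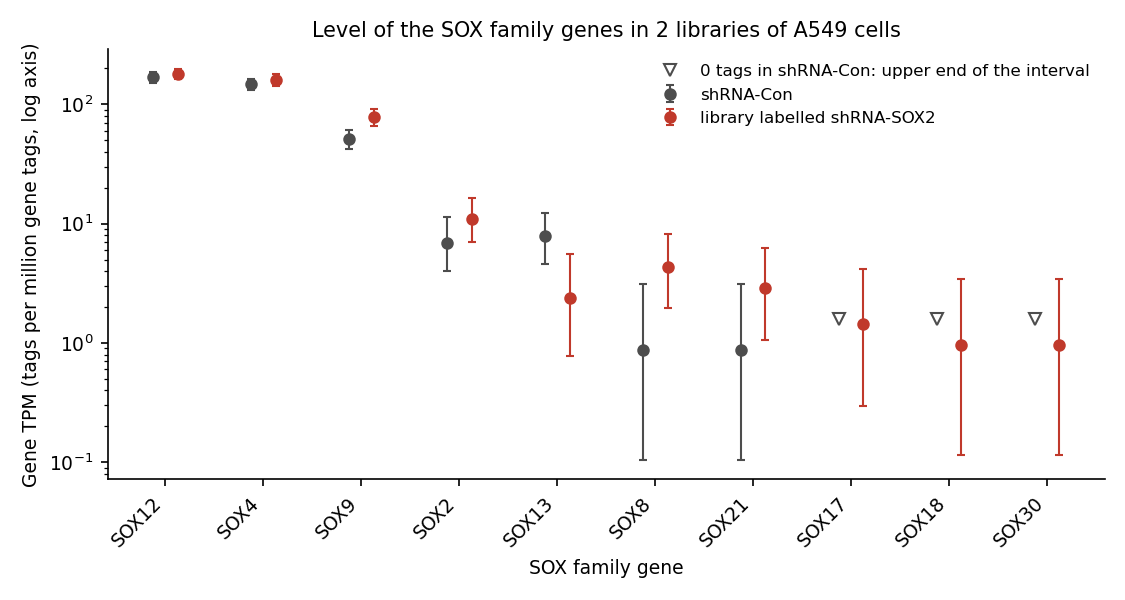
Gene TPM, tags per 1000000 gene tags (log axis), of the 10 SOX family genes with a row, in the shRNA-Con library (grey) and the library labelled shRNA-SOX2 (red), with 95% exact intervals and a hollow triangle at the upper end of the interval where a gene had 0 tags. SOX12 and SOX4 lie above 100 in both libraries, SOX9 lies at 50.8 and 77.8, and the other genes lie at or below 11.0.

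At an FDR of 0.001, 0 of the 6 members were called, while 21.7% of all genes were called by the same Fisher's exact test. That share is not matched for tag depth. A higher level would have been called only from 42 tags for SOX2, 45 for SOX13 and 12 for SOX18. With 6 members, 0 calls do not show that SOX genes differ from other genes. An unadjusted p below 0.05 was reached by 2 members, SOX9 and SOX13, and by 5800 of the 13137 genes. With TMM factors 1 member, SOX9, was called, against 21.3% of all genes, and at an FDR of 0.05 it was again SOX9 alone, against 37.3% of all genes. With clean tags 0 members passed the 0.001 threshold. The median log2 fold change of the 10045 genes with at least 20 tags was -0.10 when gene tags set the scale, -0.03 under TMM and -0.22 under clean tags, so the members are to be read relative to those values. A change of scaling moves every gene by the same amount, and SOX2, SOX4, SOX9 and SOX12 lay above the median and SOX13 below it.

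**Figure D2:**
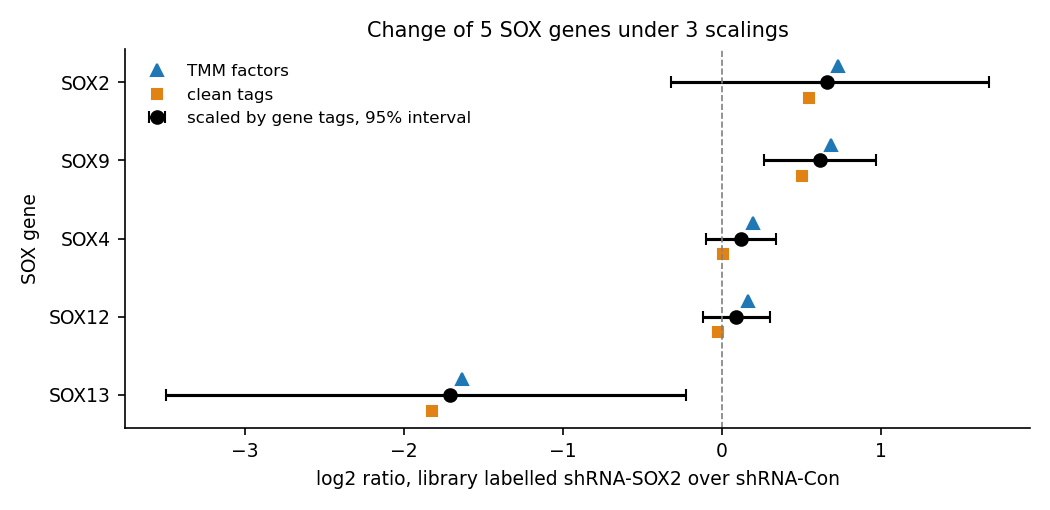
Log2 ratio (shRNA-Con as the denominator, the library labelled shRNA-SOX2 as the numerator) for the 5 members with at least 10 tags, scaled by gene tags (black, with 95% interval), by TMM factors (blue triangles) and by clean tags (orange squares). The interval of SOX9 lies above 0 and that of SOX13 below 0, those of SOX2, SOX4 and SOX12 span 0, and SOX12 moves from 0.09 to -0.021 with clean tags.

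**Figure D3:**
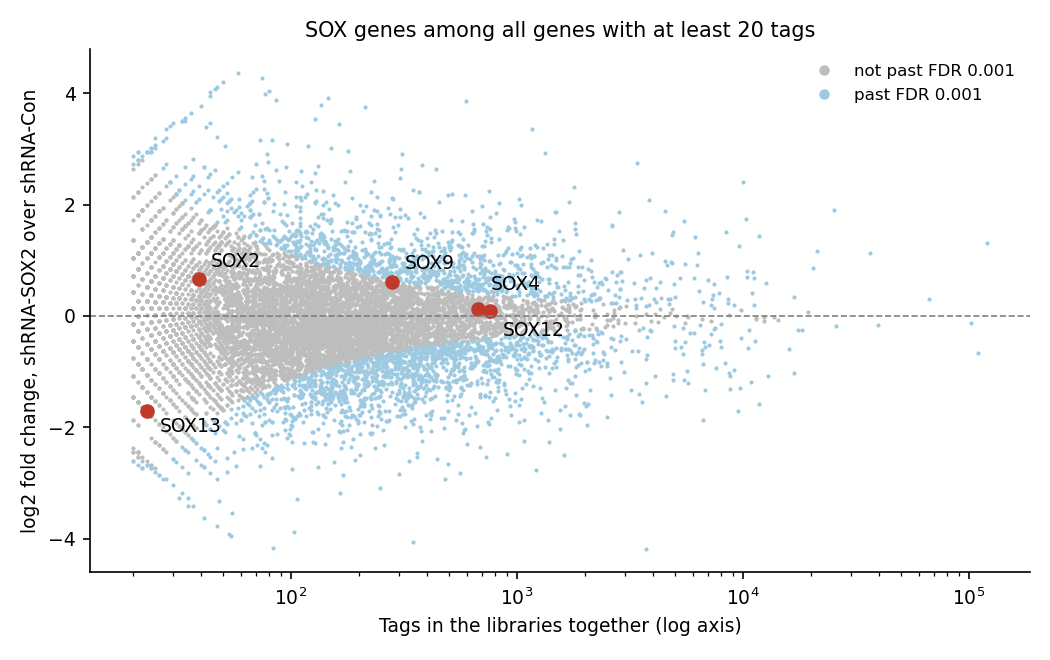
Log2 fold change against the tags in both libraries together (log axis) for all 10045 genes with at least 20 tags, with genes past an FDR of 0.001 in blue, the others in grey and the 5 members in red. SOX4 and SOX12 sit near 0 among well-counted genes, SOX12 passing to -0.021 with clean tags, while SOX2 and SOX13 sit where few tags widen the cloud.

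The SOX tags of these cells were mostly those of the group C pair. Together the 6 members had 877 tags in shRNA-Con against 903 in the library labelled shRNA-SOX2, or 0.0381% and 0.0431% of gene tags. SOX12 made up 44.1% (40.8 to 47.5) of them in shRNA-Con and 41.5% (38.3 to 44.8) in the library labelled shRNA-SOX2. SOX4 made up 38.7% (35.4 to 42.0) and 37.1% (33.9 to 40.3). The pair thus held 82.8% (80.1 to 85.2) and 78.6% (75.8 to 81.3) of the members' tags. SOX9 held 13.3% (11.2 to 15.8) and 18.1% (15.6 to 20.7). SOX2 itself held 1.82% (1.05 to 2.95) and 2.55% (1.62 to 3.80), and SOX13 held 2.05% (1.22 to 3.22) and 0.554% (0.180 to 1.29). These shares do not depend on how the libraries were scaled.

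**Figure D4:**
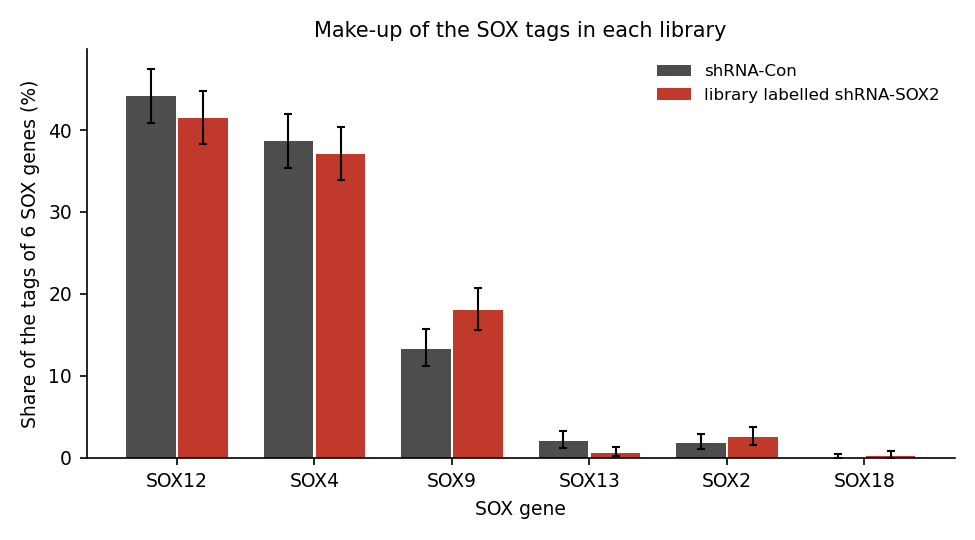
Share of the 6 members' tags held by each member (%), with 95% exact intervals, in shRNA-Con (grey bars) and the library labelled shRNA-SOX2 (red bars). SOX12 and SOX4 hold 82.8% and 78.6% together, and SOX2 holds 1.82% and 2.55%.

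The order by tags in shRNA-Con was SOX12, SOX4, SOX9, SOX13, SOX2 and SOX18. SOX12 held 53.3% (49.6 to 57.0) of the tags of the pair it formed with SOX4, which is not beyond counting error, and SOX13 held 52.9% (35.1 to 70.2) of its tags and those of SOX2. SOX4 had 2.90 times the tags of SOX9, and SOX9 had 6.5 times those of SOX13. In the library labelled shRNA-SOX2, SOX2 stood ahead of SOX13 with 82.1% (63.1 to 93.9) of the tags of that pair, a difference beyond counting error. There SOX12 and SOX4 again did not differ, with 52.8% (49.1 to 56.5) for SOX12, and SOX4 had 2.06 times the tags of SOX9.

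A tag is counted once per captured mRNA, so transcript length should bear little on these counts, but the order was also taken per kilobase of transcript. In shRNA-Con the levels were 36.3 gene TPM per kilobase for SOX12, 25.1 for SOX4, 12.9 for SOX9, 2.76 for SOX2 and 2.18 for SOX13. In the library labelled shRNA-SOX2 they were 38.7 for SOX12, 27.3 for SOX4, 19.8 for SOX9, 4.37 for SOX2 and 0.666 for SOX13. On this scale SOX2 came before SOX13 in both libraries, and the first 3 places were unchanged. Among all genes of the table, SOX12 stood at the 92.2nd percentile of tags in shRNA-Con, SOX4 at the 90.8th, SOX9 at the 72.1st, SOX13 at the 32.4th and SOX2 at the 30.7th.

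Summed over the 6 members, the level was 381 (356 to 407) gene TPM in shRNA-Con and 431 (404 to 460) in the library labelled shRNA-SOX2. The ratio of the sums was 1.13 (1.03 to 1.24) with gene tags and 1.19 (1.08 to 1.31) with TMM factors. With clean tags it was 1.05 (0.954 to 1.15), an interval that includes 1. SOX9 alone had 117 and 163 tags, beside 877 and 903 for the 6 members, while SOX13 had 18 and 5. The ratio therefore does not stand for a change shared by the members. SOX18, with 0 tags in shRNA-Con, could add only to the other side.

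The change of one member over that of another needs no scaling. Of the 10 pairs among the 5 members with at least 10 tags, 6 had an interval that left out 1. Each of the 6 held SOX9 or SOX13, the 2 members with an unadjusted p below 0.05 by Fisher's exact test. Such a p was reached by 5800 of the 13137 genes. The pairs share genes, so they are not independent, and the intervals are not corrected for their number. SOX9 over SOX12 changed by 1.44 (1.08 to 1.92), and SOX4 over SOX9 by 0.709 (0.530 to 0.949). SOX4 over SOX12 changed by 1.02 (0.824 to 1.26), so that these relatives kept their ratio within counting error. SOX2 over SOX9 changed by 1.03 (0.497 to 2.19), an interval that allows a change of either sign. The other 4 of the 6 pairs held SOX13, with 5.02 (1.72 to 17.7) for SOX9 over SOX13 as 1 of them.

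The remaining family genes were near the lower limit of the table. SOX8, a group E relative of SOX9, had 2 tags in shRNA-Con against 9 in the library labelled shRNA-SOX2, giving a ratio of 4.95 (1.02 to 47.1) with an adjusted p of 0.0775 by Fisher's exact test. SOX21, a group B repressor, had 2 and 6 tags, a ratio of 3.30 (0.59 to 33.4). Both ratios use the 2 tags as counted. With a count below 3 set to 3, the log2 fold changes were 1.72 for SOX8 and 1.14 for SOX21. SOX17, an endoderm and endothelial factor, had 0 and 3 tags, and SOX30, a testis factor, had 0 and 2. These 4 genes summed to 4 tags in shRNA-Con against 20 for the library labelled shRNA-SOX2. SOX17 and SOX30, with 0 tags in shRNA-Con, were listed through the other library alone and could add only to its side. The sums are therefore not a fair comparison of the libraries. No gene in the table had exactly 1 tag, and the fewest above 0 was 2.

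Partners and coactivators through which SOX proteins act were read from a list, chosen like the other lists with earlier results of these data known. Of 14 genes, 10 had a row, and 1 rose and 1 fell past an FDR of 0.001, which is 2 of 10 beside 21.7% of all genes. CTNNB1, which encodes β-catenin, had 193 tags in shRNA-Con against 266 in the library labelled shRNA-SOX2, giving a log2 fold change of 0.60 with an adjusted p of 6.28e-05 by Fisher's exact test that became 0.00156 with clean tags. CREBBP, a histone acetyltransferase, had 236 and 118 tags, giving a log2 fold change of -0.86 with an adjusted p of 5.46e-07 by the same exact test. Its relative EP300 had 259 and 173 tags, with an adjusted p of 0.00631 by Fisher's exact test that became 0.00037 with clean tags. PARP1, which binds SOX2, had 196 and 190 tags. The median of the 8 partners with at least 20 tags was 0.05, beside -0.10 for all genes.

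Genes for the modification, stability and transport of SOX proteins all had a row, and 3 of 15 rose and 4 fell, which is 7 of 15 beside 21.7% of all genes. WWP2, a ubiquitin ligase that acts on SOX2 and also raises SOX9 activity, had 62 tags in shRNA-Con against 15 in the library labelled shRNA-SOX2, giving a log2 fold change of -1.91 with an adjusted p of 3.47e-06 by Fisher's exact test. FBXW7, the substrate receptor of a ubiquitin ligase that degrades SOX9, had 15 and 47 tags, giving a log2 fold change of 1.79 with an adjusted p of 5.59e-05 by the same exact test. CARM1, an arginine methyltransferase that acts on SOX2 and SOX9, had 159 and 68 tags, and USP22, a deubiquitinase, had 565 and 187, and both fell. SDCBP, which encodes syntenin, a binding partner that stabilises SOX4, rose from 410 to 639 tags. CALM2 and CALM3 encode calmodulin, which carries SOX9 into the nucleus, and they differed in direction. CALM2 had 1253 and 373 tags and fell, while CALM3 had 293 and 598 and rose. Whether tags are shared between them was not tested. KPNB1, a nuclear import receptor, had 634 and 608 tags, with an adjusted p of 0.491 by Fisher's exact test. The median log2 fold change of the 15 genes was 0.012, beside -0.10 for all genes with the same scaling by gene tags.

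HMG-box genes outside the SOX family were the nearest relatives by domain. Of the 23, 22 had a row, 1 rose and 3 fell, which is 4 of 22 and near the 21.7% of all genes. HMGB3, a chromatin architectural protein, had 307 tags in shRNA-Con against 155 in the library labelled shRNA-SOX2, giving a log2 fold change of -0.85 with an adjusted p of 1.2e-08 by Fisher's exact test. HMGB2 moved the other way, from 85 to 149 tags, giving a log2 fold change of 0.95. TFAM, which packages mitochondrial DNA, had 84 and 35 tags and fell. UBTF, a factor for ribosomal RNA transcription, had 162 and 90 tags, with an adjusted p of 0.000705 by Fisher's exact test that became 0.00323 with TMM factors. The median of the 19 genes with at least 20 tags was -0.41, beside -0.10 for all genes.

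Described targets of SOX proteins were mostly not listed, 11 of 26 having a row. DKK1, an inhibitor of Wnt signalling, rose from 359 to 618 tags, giving a log2 fold change of 0.92 with an adjusted p of 2.82e-21 by Fisher's exact test. TEAD2, a partner of the YAP coactivator, rose from 6 to 35 tags. BMI1, a Polycomb gene, had 139 and 64 tags and fell, a log2 fold change of -0.98. CCND1, the cyclin D1 gene, had 894 and 913 tags, with an adjusted p of 0.0376 by Fisher's exact test. These 3 calls are of 11 genes, beside 21.7% of all genes, and the median of the 8 with at least 20 tags was 0.08, beside -0.10 for all genes.

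Since SOX9 and SOX2 mark opposite ends of the developing airway, the genes made beside them there were read as well. In the distal list 11 of 14 genes had a row, 2 rose and 0 fell at 0.001, which is 2 of 11 beside 21.7% of all genes. ID2, a tip gene, had 156 tags in shRNA-Con against 320 in the library labelled shRNA-SOX2, giving a log2 fold change of 1.17 with an adjusted p of 1.7e-16 by Fisher's exact test. FOXA1, a pioneer factor of lung endoderm, had 14 and 53 tags and rose, a log2 fold change of 2.06. ETV5, an FGF-responsive tip gene, had 133 and 76 tags, giving a log2 fold change of -0.67 with an adjusted p of 0.00428 by Fisher's exact test that became 0.000611 with clean tags, under which 3 genes of the list were called. FOXA2 had 118 and 92 tags, and the median of 8 distal genes was -0.06, beside -0.10 for all genes. In the proximal list 4 of 11 genes had a row. Past 0.001, 1 rose and 1 fell, which is 2 of 4 beside 21.7% of all genes. KRT15, a basal cell keratin, had 7 and 39 tags and rose, and MUC5B, an airway mucin, had 136 and 49 tags and fell, with a log2 fold change of -1.33. TP63, the basal cell master factor, had 7 and 23 tags, with an adjusted p of 0.00577 by Fisher's exact test. Its log2 fold change of 1.85 was the median of the 3 proximal genes with at least 20 tags over both libraries, beside -0.10 for all genes. KRT15 and TP63, each with 7 tags in shRNA-Con, reached 20 only through their higher count in the other library. The filter thus favoured a high median, and no direction of the list is read from it. The 4 proximal genes with a row summed to 70.3 gene TPM in shRNA-Con, above the 54.4 of the other library. MUC5B held 136 of the 162 tags in shRNA-Con.

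**Figure D5:**
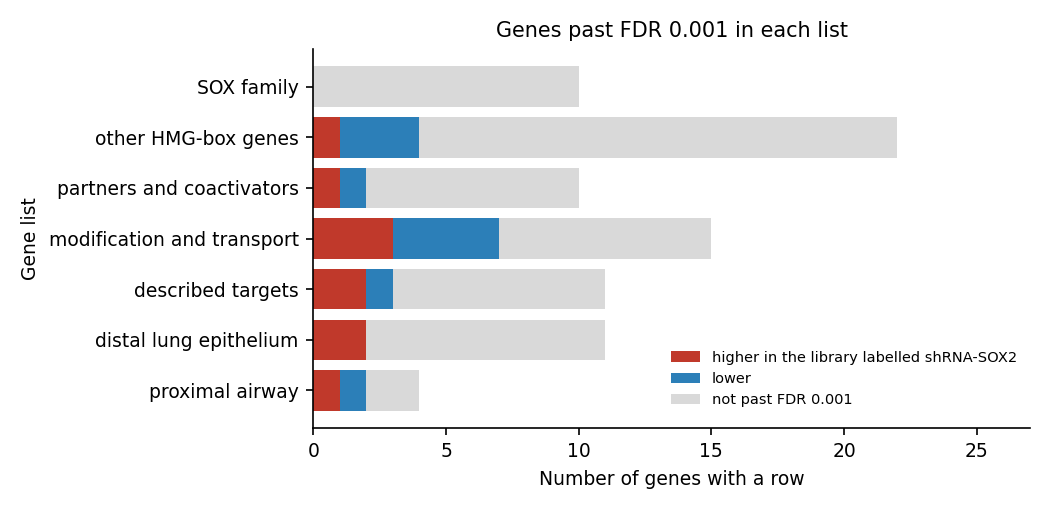
Number of genes with a row in each of 7 lists that rose (red) or fell (blue) past an FDR of 0.001 in the library labelled shRNA-SOX2, or did not pass (grey). The SOX family holds 0 called genes of 10, and the list for modification and transport of SOX proteins holds 7 of 15, beside 21.7% of all genes. These lists differ in depth, since 5 of the 10 SOX genes but all 15 of the others had at least 20 tags.

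With an assumed coefficient of variation of 0.2 between cultures, edgeR's exact test called 0 genes in each list named here, and 113 of 13137 genes in all.

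Markers of other cell types were read because SOX17 and SOX18 are made in endothelium. Of 7 endothelial markers, 1 had a row, PECAM1, with 3 tags in shRNA-Con against 0 in the library labelled shRNA-SOX2. Of 6 fibroblast markers 3 had a row, with 44 and 43 tags for COL1A1, 2 and 9 for LUM and 0 and 2 for PDGFRB. Of 5 leukocyte markers 3 had a row, with 2 and 2 tags for PTPRC, 2 and 5 for CD68 and 0 and 4 for LYZ. The endothelial list summed to 1.30 and 0 gene TPM in shRNA-Con and the library labelled shRNA-SOX2, the fibroblast list to 19.96 and 25.8, and the leukocyte list to 1.74 and 5.25. Their part in the SOX counts was not tested.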

How the data were processed

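Digital gene expression tags were analysed from 2 libraries of A549 cells. The authors deposited raw tag counts per gene ID and a TPM column, obtained by dividing counts by clean tags (3456212 for shRNA-SOX2 and 3516261 for shRNA-Con). The TPM column served only to find the clean tags. The submitters' processing notes name the build hg19. Aligner, annotation, tag enzyme and tag length are not given in the sources used here. Deposited log2 ratios, p-values and FDR of the authors' own comparison, and coordinates without a chromosome, were not used. The column with the initials SC was read as shRNA-Con and S1 as shRNA-SOX2.

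Tags were divided by the gene tags of the library, 60.6% of clean tags for shRNA-SOX2 and 65.5% for shRNA-Con. A count below 3 was set to 3 for a log2 fold change, while ratios and their intervals used the counts as they stood. Fisher's exact test (scipy 1.17.1, Python 3.11.15) was run over 13137 genes at the study's FDR of 0.001. The 19 rows without a symbol held 0.0372% of tags in the library labelled shRNA-SOX2 and 0.0535% in shRNA-Con and stayed in the table. Of the gene IDs, 13086 were matched to RefSeq. Alternatives were TMM factors (0.975 for shRNA-SOX2, 1.03 for shRNA-Con), median-ratio and clean-tag scaling, a minimum of 10 tags, an FDR of 0.05, and edgeR 4.0.16 exact tests with an assumed coefficient of variation of 0.1, 0.2 or 0.4 (R 4.3.3, DESeq2 1.42.0 for size factors). Fisher's exact test with its adjustment and the interval of a ratio were tried on simulated counts without variation between cultures. The other steps were not tested in this way.

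The members, lists and tests were chosen with earlier results of these data known. Named genes were the members, the other SOX genes with a row, the called genes of each list (at most 8, by adjusted p), the 3 of each list with the most tags, and the 3 genes nearest in level to each of SOX4 and SOX12. The result of 1 further gene is not reported here, and the gene was left out of its list.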

Additional observations from a re-analysis of the deposited data

Results flagged for a closer look

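SOX8 and SOX21 were not members and entered no comparison of the members. Each was flagged for having more than 3 tags in the library labelled shRNA-SOX2 and at most 3 in shRNA-Con. The higher count in the library labelled shRNA-SOX2 was thus fixed by the rule and is not a result. SOX8 had 9 tags in the library labelled shRNA-SOX2 and 2 in shRNA-Con. SOX21 had 6 and 2 tags. Neither passed an FDR of 0.05 by Fisher's exact test, with adjusted p of 0.0775 for SOX8 and 0.283 for SOX21.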

How the results depend on the processing

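Of 92 values under alternative settings, 19 moved, 2 became stronger and 1 reversed. The other 70 kept their direction and side of the threshold, moved within their error or, for a count, stayed within 1.5 times. Many of these could hardly have come out otherwise. An assumed coefficient of variation was applied to members already not called, and the endothelial, fibroblast and leukocyte lists began at 0 calls. The 70 are therefore no measure of robustness. A like count need not hold the same genes, since the 2 calls among partners were CREBBP and CTNNB1 with gene tags but CREBBP and EP300 with clean tags. The reversed value was the log2 fold change of SOX12, -0.021 with clean tags. The number of members called was 0 when gene tags set the scale, and 1 under TMM, under the median ratio and at an FDR of 0.05, each time SOX9, and the SOX family list likewise held 1 call with TMM factors. With an assumed coefficient of variation of 0.2, 0 genes were called in the lists of HMG-box genes, partners, modification and transport, targets, distal lung, proximal airway and A549 epithelium. Over all genes 2849 were called with gene tags, 1166 with a coefficient of 0.1, 113 with 0.2, 0 with 0.4 (627 at an unadjusted p below 0.05 by edgeR's exact test) and 4902 at an FDR of 0.05. Without SOX4, SOX12 held 71.9% of the remaining member tags in shRNA-Con against 66.0% in the library labelled shRNA-SOX2, SOX9 21.7% and 28.7%, and SOX2 2.97% and 4.05%. Per length, SOX12 over SOX4 was 1.44 in shRNA-Con against 1.41 in the library labelled shRNA-SOX2, against 1.14 and 1.12 by tags. The use of all 10 listed family genes as the denominator was added once the data had been seen. No paired analysis was possible because only 1 library stood for each condition, which also kept any library from being left out. Depth limits SOX2, SOX13 and SOX18, which had at most 23 tags in a library.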

Other observations

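The genes nearest in level to SOX12 over both libraries were MRPL13, a mitochondrial ribosomal protein gene, with 382 tags in shRNA-Con against 373 in the library labelled shRNA-SOX2, CSTB with 386 and 383, and LSM4 with 378 and 376. Those nearest to SOX4 were DPM1 with 335 and 337 tags, JAGN1 with 329 and 335, and SEC62 with 332 and 346. The measure of likeness was the distance in log2 gene TPM over 2 libraries, so it matches levels and says nothing of shared control. In the deposited gene ontology columns all 6 members carried the nucleus, as did 3864 genes of the table, 5 of 6 carried transcription factor activity (617 genes), and SOX2 and SOX9 carried cell fate specification (9 genes).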
